A study of Mus musculus with 2 samples.

Results

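Cholesterol handling was examined in microglia of wildtype mice and of mice without PARK7/DJ-1, 24 h after LPS, through Ch25h and 7 further genes of sterol export, sensing, esterification and synthesis: Abca1, Abcg1, Nr1h3, Insig1, Srebf2, Soat1 and Sqle. These 8 genes, of 19537 in the deposited matrices, were chosen by name after Ch25h had been seen at different levels in the 2 genotypes, so that their levels are a description. The KO line was the gene-trap strain B6;129P2-Park7Gt(XE726)Byg/Mmucd, backcrossed to C57BL/6NCrl, and its WT littermates were the controls. Every mouse, aged 3 to 4 months, had received 1 intraperitoneal injection of LPS, a bacterial membrane component, at 4 µg/g body weight, so that both groups were inflamed and no untreated library was used here. Each library, called KO LPS and WT LPS, pooled 2 mice (1 female and 1 male). Live CD11b+CD45int cells were sorted, a gate that mainly collects microglia, and processed by Drop-seq, a droplet method that counts single transcript molecules by unique molecular identifiers (UMIs). With 1 library per genotype there was no replicate and no test between genotypes was possible; all intervals are 95% and cover counting error only.

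Cholesterol 25-hydroxylase, the product of Ch25h, converts cholesterol into 25-hydroxycholesterol, an oxysterol that macrophages make after toll-like receptor and interferon signals. The oxysterol keeps the sterol regulatory factor SREBP2 (Srebf2) in the endoplasmic reticulum through INSIG1, which lowers the transcription of synthesis enzymes such as Sqle, and oxysterols activate the nuclear receptor LXRα (Nr1h3), whose targets include the export pumps Abca1 and Abcg1. SOAT1 esterifies free cholesterol for storage in lipid droplets, and 25-hydroxycholesterol can activate it.

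Promoter windows of the 2 members that were over 2-fold lower in KO LPS (Ch25h and Soat1) and of 2 that were not by their summed UMIs (Abca1 and Insig1) show what lies ahead of these genes. RefSeq windows on GRCm38.p6 were found for 6 of the 8 members, without Abcg1 and Sqle. Each line gives the 250 bases before the transcription start, 5′ to 3′ on the gene's strand, and capitals mark a match to a searched motif. The windows lie at chr19:34475149-34475398 (minus strand) for Ch25h, chr1:156474329-156474578 (minus strand) for Soat1, chr4:53159896-53160145 (minus strand) for Abca1 and chr5:28071162-28071411 (plus strand) for Insig1.
Ch25h: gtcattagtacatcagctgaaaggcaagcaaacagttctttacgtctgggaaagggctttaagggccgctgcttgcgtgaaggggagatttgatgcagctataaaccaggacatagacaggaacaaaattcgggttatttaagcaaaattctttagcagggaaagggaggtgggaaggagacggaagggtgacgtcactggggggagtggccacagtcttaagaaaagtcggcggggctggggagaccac
Soat1: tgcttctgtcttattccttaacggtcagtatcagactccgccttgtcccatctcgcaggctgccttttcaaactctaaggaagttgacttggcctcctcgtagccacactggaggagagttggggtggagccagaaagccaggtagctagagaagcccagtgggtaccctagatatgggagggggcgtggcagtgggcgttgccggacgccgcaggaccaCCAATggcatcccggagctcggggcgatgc
Abca1: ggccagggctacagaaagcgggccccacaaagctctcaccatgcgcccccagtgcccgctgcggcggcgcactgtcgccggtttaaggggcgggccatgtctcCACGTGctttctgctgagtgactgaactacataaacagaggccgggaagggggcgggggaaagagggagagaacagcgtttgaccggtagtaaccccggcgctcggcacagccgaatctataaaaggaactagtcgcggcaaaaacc
Insig1: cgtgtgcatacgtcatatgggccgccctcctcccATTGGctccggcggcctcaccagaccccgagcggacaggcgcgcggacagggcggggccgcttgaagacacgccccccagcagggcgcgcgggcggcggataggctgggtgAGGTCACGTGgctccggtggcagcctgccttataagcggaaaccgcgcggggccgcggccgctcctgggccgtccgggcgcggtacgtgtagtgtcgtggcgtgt
The search covered both strands for SRE-1 (TCACNCCAC), the E-box (CACGTG), the inverted CCAAT box (ATTGG), the ISRE (GAAA, any pair of bases, GAAA), the LXR hexamer (AGGTCA) and the NF-kB motif. The Ch25h window held none of these 6 motifs, and neither did the 2 windows of Nr1h3. The Soat1 window held an inverted CCAAT box at position -30, a motif found in 33.8% of 32851 windows of this length. The E-box stood at -147 in Abca1 and at -101 in Insig1, against 6.02% of all windows. In Insig1 this E-box overlapped the LXR hexamer at -105 (14.02% of windows), and an inverted CCAAT box lay at -216. The Srebf2 window held an inverted CCAAT box at -135. No member window held SRE-1 (1.05% of windows), the ISRE (2.98%) or the NF-kB motif (7.25%); a match, or none, in these letters says nothing of binding.

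Cells were taken as barcodes with at least 500 UMIs and at least 100 genes, which gave 1427 WT LPS cells with 1989011 UMIs and 320 KO LPS cells with 381305. The study itself kept more cells of either genotype than this rule does. The KO LPS matrix lists 7 of the 8 members. Ch25h is the one it does not list, so its 0 over all 9999 barcodes of that library is a missing entry read as 0. Median depth was 1065 UMIs per cell in WT LPS and 963.5 in KO LPS, the 2 libraries shared 0 cell barcodes, and Park7 had 323 UMIs in WT LPS against 1 in KO LPS. The 8 microglia markers together reached 23775 counts per 1000000 UMIs (CPM) in WT LPS and 29412 CPM in KO LPS, each with at least 1 UMI. Choroid plexus markers stood at 2119 CPM in KO LPS against 14.6 CPM in WT LPS, with 4 of 5 genes detected in each and most UMIs from Ttr. Other lists were also higher in KO LPS by their summed UMIs. Border macrophage markers stood at 62.9 against 18.6 CPM (1 and 5 of 6 genes detected), with only Mrc1 found in KO LPS. Astrocyte markers were at 435 against 198 CPM (7 and 8 of 9). The neutrophil list was at 430 against 257 CPM (1 and 4 of 9). Its 164 KO LPS UMIs were all Csf3r, which gave 384 of 512 in WT LPS, while S100a8, S100a9 and Retnlg were found in WT LPS alone. Monocyte markers were at 26.2 and 40.7 CPM (3 and 5 of 8), with Ly6c2 at 0 in both. The part of these lists in the values below was not tested.

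Ch25h (chr19:34473783-34475148 on GRCm38.p6, overlapping no other annotated gene) was detected in WT LPS and not in KO LPS. KO LPS had 0 UMIs in 320 cells, and WT LPS had 58 UMIs in 31 of 1427 cells, or 29.2 CPM (22.1 to 37.7). At the WT LPS level, 11.1 UMIs would have been counted in the KO LPS cells. With a floor of 3 counts for the empty library, Ch25h was at least 3.71-fold lower in KO LPS, and the ratio KO over WT had an upper limit of 0.343. Barcodes outside the cells held 19 Ch25h UMIs in WT LPS, against 0 for KO LPS. The WT LPS signal was concentrated in a few cells: 21 cells had 1 UMI, 10 cells had 2 or more and held 63.8% of the UMIs, and the top 3 cells alone held 34.5%. UMIs in 1 cell are not independent of each other, so the Poisson limits are narrow for this gene. Without the top 3 cells, 38 UMIs in 28 cells remained (19.2 CPM), 7.33 UMIs would have been counted in KO LPS, and the bound from the floor was at least 2.44-fold. The exact upper limit of the ratio was then 0.529, which no longer excludes a difference under 2-fold.

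**Figure D1:**
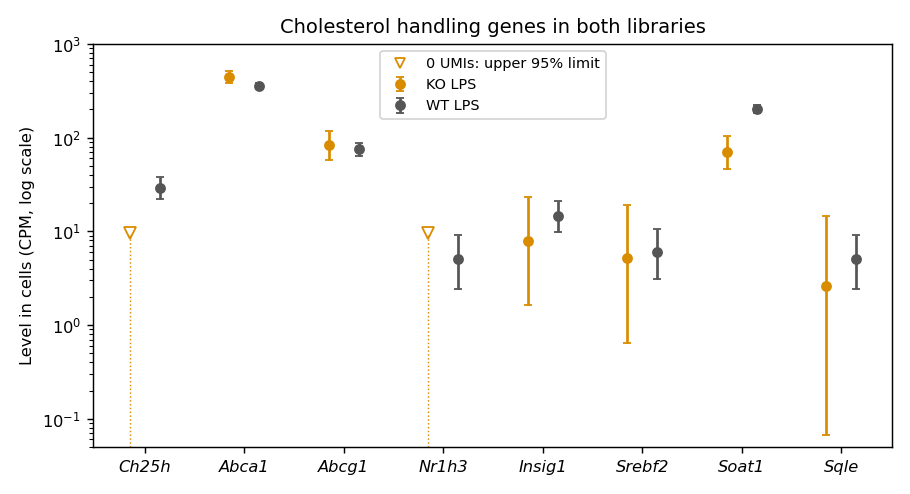
Level of each member in the cells of KO LPS (orange) and WT LPS (grey), in CPM on a log axis, with exact Poisson 95% intervals; an open triangle is the upper limit where a library had 0 UMIs. Ch25h and Soat1 are the genes whose points stand furthest apart, while Abca1 and Abcg1 lie close together.

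To compare shares of cells at equal depth, each cell was thinned to 500 UMIs. Ch25h was then found in 0 of 320 KO LPS cells, which allows a share of up to 0.9375% by the floor of 3 counts and 1.15% by the exact interval, and in 15 of 1427 WT LPS cells, or 1.05% (0.589 to 1.73). The difference was -1.05 percentage points with an interval from -1.73 to 0.184, so that a difference in the share of cells was not detectable at this depth: 3.36 KO LPS cells would be positive at the WT LPS share. Without thinning, the WT LPS share was 2.17% (1.48 to 3.07) and the difference -2.17 points (-3.07 to -0.834), whose interval lies below 0, with WT LPS cells somewhat deeper. Free RNA gives a background in droplet data. Barcodes of WT LPS with at most 100 UMIs held 4 Ch25h UMIs, or 12.7 CPM (3.45 to 32.4), and droplets filled with 500 UMIs of that mixture would be positive in 0.631% of cases, inside the interval of the WT LPS share. The level in cells was 2.30 times that of these barcodes (0.852 to 8.73). The highest cells stood far above this background, with 10 Ch25h UMIs among 2204, or 4537 CPM, and 7 among 2055, or 3406 CPM.

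A ratio was counted where the libraries together gave 20 UMIs or more, which 5 of the 8 members did. Ch25h and Soat1, 2 of these 5, were over 2-fold lower in KO LPS, where 17.1% of all 9085 genes passing the minimum were. None was over 2-fold higher, against 12.9% of all genes. The rule that chose Ch25h had used this contrast, so nothing is read from its count. The median log2 ratio of the 5 was -0.86, also with Ch25h at its bound, beside -0.02 over all genes (SD 1.29).

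The export pumps did not share the pattern of Ch25h. Abca1, which moves cholesterol and phospholipid onto lipid-poor apolipoproteins, gave the most UMIs of any member in both libraries, with 716 UMIs for WT LPS (360 CPM, 334 to 387) and 171 for KO LPS (448 CPM, 384 to 521). Its ratio KO over WT was 1.25 (1.05 to 1.47). At 500 UMIs per cell it was seen in 17.5% of KO LPS and 16.3% of WT LPS cells, a difference of 1.24 points (-3.24 to 6.22). These shares were below the 21.5% and 25.6% that free RNA at this depth would give. The share of cells therefore does not tell Abca1 in a cell from free RNA. The microglia marker P2ry12 was likewise found in 77.5% of KO LPS cells, below the 91.7% from free RNA. The level in WT LPS cells was 0.608 (0.517 to 0.718) of that in barcodes with at most 100 UMIs, and in KO LPS it was 0.928 (0.719 to 1.20).

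Abcg1, which passes cholesterol on to high-density lipoprotein, had 150 UMIs in WT LPS (75.4 CPM) against 32 in KO LPS (83.9 CPM). The ratio was 1.11 with an interval from 0.735 to 1.64, which spans equal levels. At equal depth Abcg1 was seen in 1.875% of KO LPS and 3.22% of WT LPS cells, a difference of -1.35 points (-2.93 to 0.975). In WT LPS its level in cells was 1.98 times (1.10 to 3.93) the background level of 38.0 CPM. In KO LPS the background was 95.6 CPM and cells did not exceed it (0.878, 0.483 to 1.64).

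Soat1 was the other member with a large difference. It had 403 UMIs in WT LPS (203 CPM, 183 to 223) but 27 in KO LPS (70.8 CPM, 46.7 to 103), and its level was 2.86-fold lower in KO LPS (ratio 0.349, 0.227 to 0.516). Unlike Ch25h it was spread over many cells, with at most 8 UMIs in any WT LPS cell and 4.22% of UMIs in the top 3. At equal depth it was found in 3.125% (1.51 to 5.67) of KO LPS cells and 9.18% (7.73 to 10.8) of WT LPS cells, a difference of -6.06 points (-8.34 to -3.13). The background was lower in KO LPS too, at 116 CPM against 184, and would give 5.62% and 8.78% of cells. These lie above the KO LPS share and inside the interval of the WT LPS share, so the share of cells does not tell Soat1 in a cell from free RNA. Soat1 in barcodes outside the cells stood at 98.9 and 153 CPM, a ratio of 0.648 (0.424 to 0.961).

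**Figure D2:**
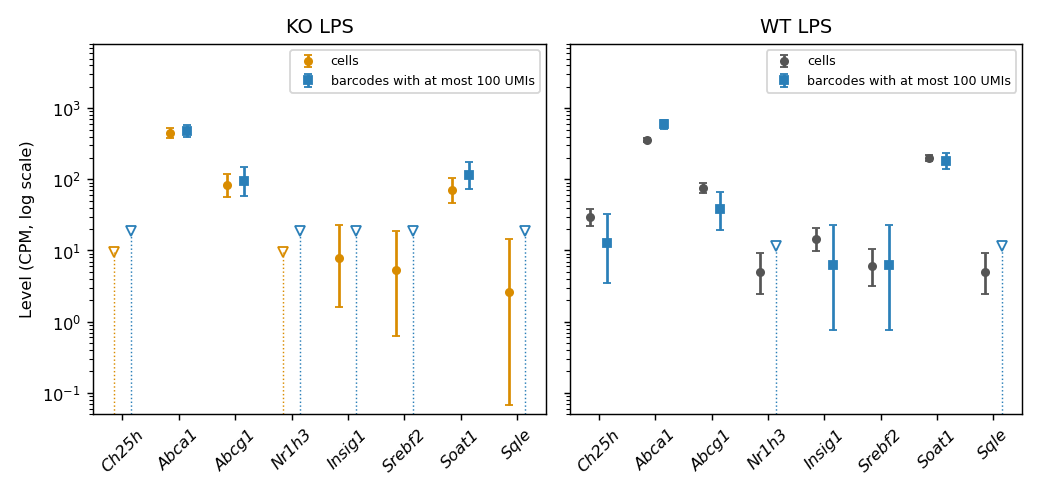
Level of each member in cells (circles) and in barcodes with at most 100 UMIs (blue squares), in CPM on a log axis with exact Poisson 95% intervals, for KO LPS (left) and WT LPS (right); open triangles are upper limits at 0 UMIs. Abca1 in WT LPS cells lies below its background and Abcg1 above it, and the Soat1 intervals overlap in both libraries.

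The regulators and the synthesis enzyme were near the limit of detection. Insig1, which retains SREBP2 in the endoplasmic reticulum when sterols are plentiful, had 29 UMIs in WT LPS against 3 in KO LPS, a ratio of 0.540 (0.105 to 1.74). As a mean of single-cell CPM its log2 ratio was -1.61 in place of -0.86, over 2-fold lower, which made 3 such members. Its span also holds the long noncoding RNA gene Gm35223, and counts of overlapping genes may be split or shared. Srebf2, whose intron hosts Mir33, had 12 and 2 UMIs (ratio 0.869, 0.0945 to 3.91), and its log2 ratio moved between -3.37 and 0.66 over 9 alternatives. Sqle, the squalene epoxidase of cholesterol synthesis, had 10 and 1 UMIs (ratio 0.522, 0.0120 to 3.67). Nr1h3 had 10 UMIs in WT LPS cells but 0 for KO LPS, too few for a bound against the floor, and its span overlaps Acp2. Summed over Nr1h3, Srebf2 and Sqle, the 3 members under 20 UMIs, there were 32 and 3 UMIs, with a ratio of 0.489 (0.0958 to 1.56). None of these intervals excludes equal levels, nor a difference of 2-fold.

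Over all 8 members, 68 KO LPS cells (21.25%) and 403 WT LPS cells (28.2%) had at least 1 member UMI at equal depth. Pairs of members are given as counts, since Abca1 in both libraries and Abcg1 in KO LPS were not above free RNA. The share of cells did not tell Soat1 from free RNA either. In KO LPS, Abcg1 was found in 4 of 56 cells with Abca1 and in 2 of 264 other cells, a difference of 6.39 points (0.866 to 16.6) that rests on 6 cells. In WT LPS it was found in 3 of 232 and 43 of 1195, a difference of -2.31 points (-3.90 to 0.324), which spans 0. Soat1 was found in 25 of 232 WT LPS cells with Abca1 and in 106 of 1195 without (1.91 points, -2.17 to 6.87), and in 7 of 46 with Abcg1 and 124 of 1381 without (6.24 points, -2.78 to 19.97).

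The WT LPS cells with Ch25h were then compared with those that had Cxcl13, a B-cell attracting chemokine that was also undetected in KO LPS cells (0 UMIs). Cxcl13 (chr5:95956939-95961068) had 103 UMIs in 17 WT LPS cells, of which the highest 3 cells had 51, 19 and 9 UMIs and 11 cells had 1. At 500 UMIs per cell, 1 of 15 Ch25h cells had a Cxcl13 UMI (6.67%, 0.169 to 31.9), against 8 of 1412 cells without Ch25h (0.567%, 0.245 to 1.11). The difference of 6.10 points had an interval from -0.421 to 31.4 and rested on 1 cell. That cell held 51 Cxcl13 UMIs and 1 Ch25h UMI among 1360 UMIs. A second random thinning gave 0 of 14 against 12 of 1413, 1000 UMIs per cell gave 1 of 13 against 9 of 757, and without thinning the counts were 1 of 31 against 16 of 1396. None of the 10 cells with 2 or more Ch25h UMIs had Cxcl13. The free RNA of WT LPS would give Cxcl13 in 2.04% of droplets at 500 UMIs, above the 0.631% of cells in which it was seen.

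**Figure D3:**
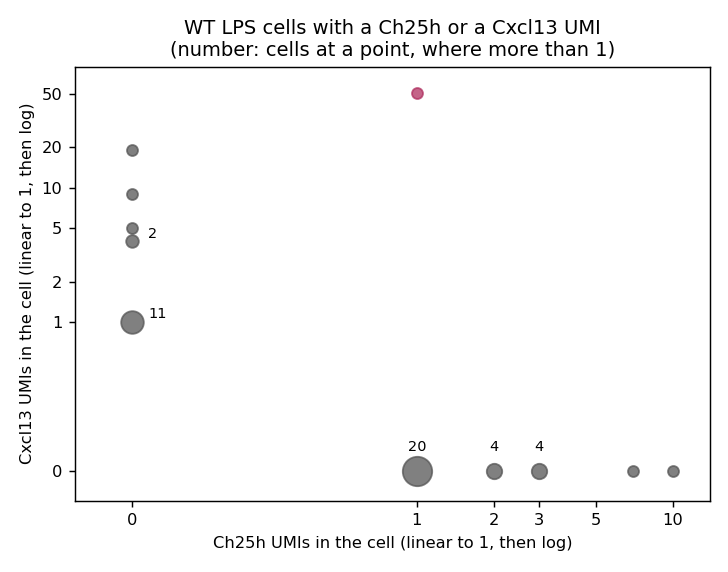
WT LPS cells with a Ch25h or a Cxcl13 UMI, by their UMIs of each gene without thinning (both axes linear to 1, then log); point size and number give the cells at a position, and red marks the cell with both. The 10 cells richest in Ch25h lie on the horizontal axis and 16 of the 17 Cxcl13 cells on the vertical axis.

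Among genes found in at least 50 WT LPS cells at equal depth, the 8 with the highest phi coefficient with Ch25h detection, over 1427 cells of which 15 had Ch25h, were Ccl3 (0.268), Cp (0.173), Cybb (0.141), Marco (0.137), Snrpb2 (0.130), Gm17087 (0.119), Cd72 (0.117) and Lyz2 (0.114). All 1427 cells come from 1 library. Ccl3, a chemokine that attracts myeloid cells, was found in 8 of 15 Ch25h cells (53.3%) and in 46 of 1412 others (3.26%). Cp, the ferroxidase ceruloplasmin, and Cybb, the catalytic subunit of the phagocyte NADPH oxidase, were each found in 9 of 15, against 9.35% and 12.9% of other cells. Marco, a scavenger receptor of macrophages, was found in 6 of 15 (40.0%) against 6.37%. Lyz2, the macrophage lysozyme, was found in 9 of 15 against 17.2%. Droplets of WT LPS free RNA would hold Cybb in 15.2%, Cp in 11.3% and Marco in 10.6% of cases at this depth. These values exceed the 13.4%, 9.88% and 6.73% of all cells that had them. The share of all cells therefore does not tell these 3 genes from free RNA. By level, Marco in WT LPS cells (442 CPM) was 1.97 times (1.54 to 2.54) that of barcodes with at most 100 UMIs, with up to 70 UMIs in 1 cell. For Ccl3 (1.88%) and Lyz2 (10.1%) the free RNA share was below the share of all cells, 3.78% and 17.7%. Between genotypes, Cd72 had 0 UMIs in KO LPS cells, Cybb 1, Marco 2, Cp 3, Ccl3 10 and Lyz2 64, against 392, 677, 879, 494, 322 and 1100 for WT LPS. Snrpb2, a splicing protein, and Gm17087 had KO over WT ratios of 1.11 and 0.793. Of the other members, Soat1 had the highest phi with Ch25h, at 0.0148 among 2820 genes ranked. Soat1 and Abca1 were each seen in 2 of the 15 Ch25h cells (13.3%), against 9.14% and 16.3% of others, and Abcg1, Nr1h3, Insig1, Srebf2 and Sqle in 0 of 15. Without thinning, Abca1 was in 16 of 31 Ch25h cells (51.6%) and 32.7% of others (18.9 points, 0.224 to 37.3). Depth was then unequal, with a median of 1489 UMIs in Ch25h cells and 1057.5 in others.

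**Figure D4:**
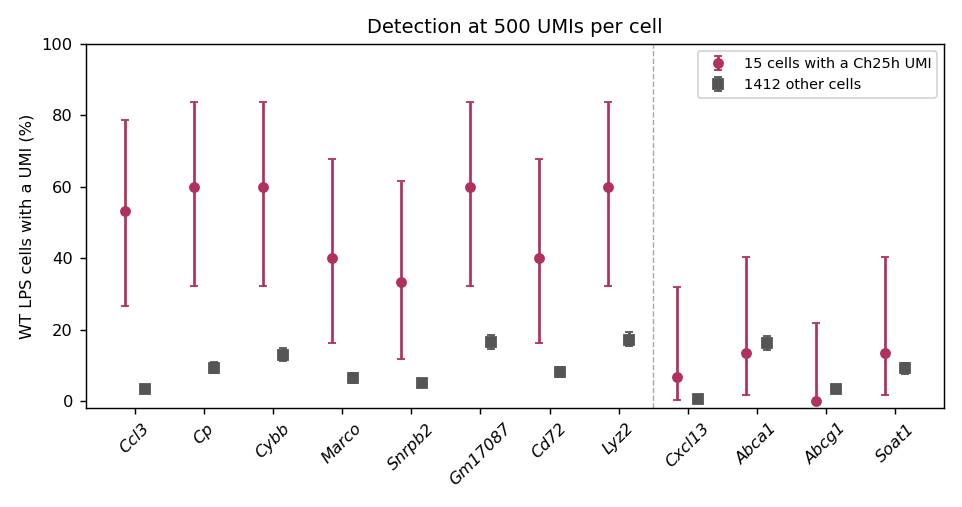
Share of WT LPS cells with a UMI of each gene at 500 UMIs per cell, in 15 cells with Ch25h (red circles) and 1412 without (grey squares), with exact Clopper-Pearson 95% intervals. Left of the dashed line are the 8 genes chosen for their high phi with Ch25h, and right of it Cxcl13, Abca1, Abcg1 and Soat1, whose intervals overlap between the 2 sets of cells.

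Inflammatory transcripts were more frequent in Ch25h cells than in others, with a median of 23 against 4 UMIs of a list of 29 inflammatory genes per cell at 500 UMIs. The list reached 65067 CPM in the 15 Ch25h cells and 12673 CPM in the others, a ratio of 5.13 (4.68 to 5.62). Saa3, an acute-phase serum amyloid, made up 206 of the 488 list UMIs and was 7.84 times as high (6.77 to 9.04); free RNA alone would give Saa3 in 48.3% of droplets, against 29.4% of all cells and 9 of 15 Ch25h cells. Without Saa3, Marco and Ccl3 the list ratio was 3.05 (2.63 to 3.51). The chemokines Ccl3 and Ccl4 were at 5733 and 3867 CPM against 97.7 and 79.3 CPM, with Ccl4 also in 8 of 15 cells. Ccl2 was 6.28 times (3.37 to 10.8) and Il1b 5.18 times (1.86 to 11.6) as high, and Irg1, the itaconate-producing enzyme, was seen in 4 of 15 cells against 20 of 1412. Of the 25 list genes with at least 20 UMIs in these thinned cells, 13 had a ratio interval above 1, where 1.63% of 5772 genes did, and none had it below 1 (0.156% of genes). Msr1 and Nfkbia had ratios of 0.981 and 1.16. These intervals treat UMIs as independent, whereas 1 cell supplied all 14 Cxcl13 UMIs, and without thinning 2 of the 31 Ch25h cells held 90 of their 138 Ccl3 UMIs.

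Other lists differed less. Type I interferon response genes had a ratio of 1.56 (1.04 to 2.27) and homeostatic microglia genes one of 0.727 (0.586 to 0.892), which was 0.921 (0.841 to 1.01) in the 10 cells with 2 or more Ch25h UMIs without thinning. Microglia markers were at 20400 CPM in Ch25h cells and 23075 CPM in others (0.884, 0.749 to 1.04). Monocyte and border macrophage markers, at 0 UMIs in Ch25h cells, were also rare in the others (56.7 and 15.6 CPM). LXR partners and targets had a ratio of 0.857 (0.478 to 1.42), and sterol synthesis genes, with 2 UMIs in Ch25h cells, one of 0.868 (0.104 to 3.17). Ch25h detection without thinning went with depth, the median being 1489 UMIs in cells with Ch25h and 1057.5 in others.

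The 10 cells with 2 or more Ch25h UMIs had between 990 and 9265 UMIs in total. Of these cells, 9 had Ccl3, 5 had Marco and 7 had at least 10 Saa3 UMIs. Over all 1427 cells, 10.9% had Marco and 12.8% had 10 or more Saa3 UMIs, and Ccl3 was seen in 111 of 1396 cells without Ch25h (7.95%). They were not alike: the cell with 10 Ch25h UMIs had 156 Saa3 and 68 Marco UMIs, while the cell with 7 Ch25h UMIs had 0 of both. Of the 21 cells with 1 Ch25h UMI, 3 had at least 10 Saa3 UMIs (14.3%), 5 had Marco (23.8%) and 10 had Ccl3 (47.6%). Without thinning, the inflammatory list was at 19583 CPM in these cells and 13114 CPM in cells without Ch25h (ratio 1.49, 1.39 to 1.61), against 54048 CPM in the 10 cells with more (4.12, 3.92 to 4.33).

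The rest of the sterol pathway was described by 5 lists with 75 genes in the matrices. Of these, 57 had at least 20 UMIs, and 11 were over 2-fold lower and 8 over 2-fold higher in KO LPS. That is near the shares of all genes, 17.1% lower and 12.9% higher, and so is not a result about the pathway; the counts of single lists below, of 7 to 15 genes each, are read against the same shares. For sterol synthesis and SREBP2 targets, 4 of 13 genes were over 2-fold lower (17.1% of all genes) and 2 higher (12.9%), with a median log2 ratio of -0.27. Ebp, a sterol isomerase, was the lowest by the naming rule (44.6 against 77.9 CPM, ratio 0.572, 0.325 to 0.946). Sc4mol, a sterol C4-methyl oxidase, was the highest by this rule of at least 50 UMIs (42.0 against 33.2 CPM, ratio 1.26, 0.683 to 2.21). Under that minimum, and named after their values were seen, Tm7sf2 (3.35, 1.28 to 8.32) and Lss (2.93, 1.14 to 7.05) were over 2-fold higher. The 4 lower genes, Pmvk, Fdps, Hsd17b7 and Dhcr7, had 1 to 3 KO LPS UMIs each and intervals that span 1. For sterol sensing and SREBP processing, 1 of 9 was lower and 1 higher, with a median of 0.49. Erlin1, an endoplasmic reticulum protein that takes part in sterol-regulated degradation, was the lowest by the naming rule, with a ratio of 1.01 (0.659 to 1.5).

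LXR partners and targets had 2 of 13 genes over 2-fold lower and 2 higher (median 0.48), beside 17.1% and 12.9% of all genes. Abca7, a lipid transporter related to Abca1, had 58 WT LPS UMIs and 2 of KO LPS (ratio 0.180, 0.0213 to 0.680). Nrip1, a nuclear receptor corepressor, was at 936 CPM in KO LPS against 378 CPM (ratio 2.48, 2.18 to 2.81). Apoe, the lipid carrier that accepts exported cholesterol, was at 262 against 641 CPM (ratio 0.409, 0.330 to 0.502) and was named after its value was seen. Among oxysterol enzymes and the receptor, 0 of 7 genes were over 2-fold lower and 2 higher (median 0.24). Gpr183, the receptor for oxysterols made from 25-hydroxycholesterol, was at 228 against 288 CPM (ratio 0.792, 0.625 to 0.994), and Osbpl8, an oxysterol binding protein, at 113 against 52.3 CPM (ratio 2.16, 1.48 to 3.11).

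Sterol uptake, transport and ester turnover had 4 of 15 genes over 2-fold lower and 1 higher, beside 17.1% and 12.9% of all genes (median 0.13, also with Soat2 at its bound). Soat2, the second acyltransferase of cholesterol esters, had 74 UMIs in 66 WT LPS cells but 0 in KO LPS, which put it at least 4.73-fold lower by the floor of 3 counts, with an exact upper limit of the ratio at 0.267. Its level in WT LPS was 37.2 CPM in cells and 25.3 CPM in barcodes with at most 100 UMIs. Npc1, the lysosomal cholesterol exporter, was at 134 against 61.8 CPM (ratio 2.16, 1.53 to 3.02). The other 3 genes that were over 2-fold lower were named after their values were seen: Nceh1, which hydrolyses cholesterol esters (4 and 62 UMIs), Plin2, which coats lipid droplets (6 and 120 UMIs, ratio 0.261, 0.0938 to 0.585), and Tspo, a mitochondrial cholesterol-binding protein (9 and 415 UMIs, 8.84-fold, 4.61 to 19.5). Among listed genes with at least 20 UMIs and a UMI in KO LPS, Tspo had the lowest ratio.

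**Figure D5:**
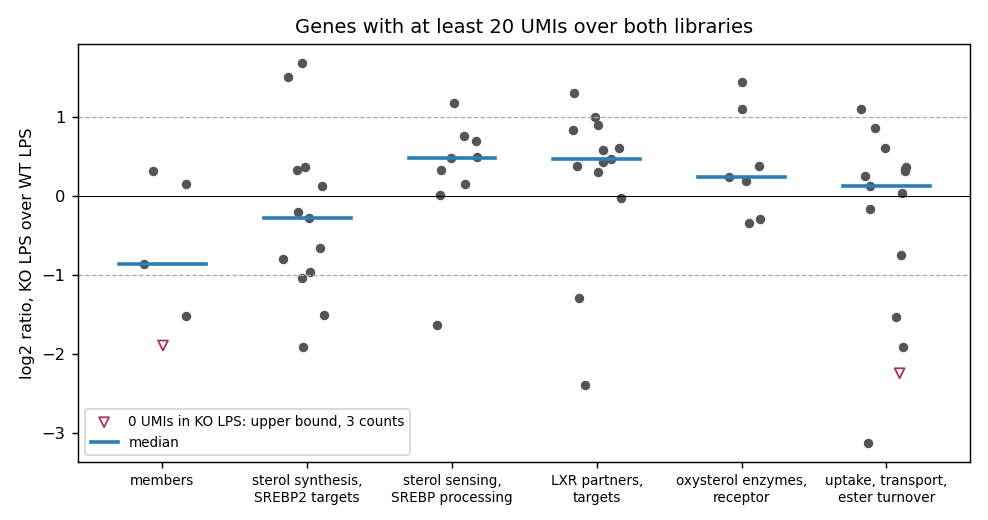
Log2 ratio (KO LPS over WT LPS) for every gene with at least 20 UMIs over both libraries, among the 8 members and the 5 lists; dots are genes, bars medians and dashed lines 2-fold. Triangles are the upper bounds of Ch25h and Soat2, at 0 UMIs in KO LPS; the lists have medians from -0.27 to 0.49 and genes on both sides of 0.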

How the data were processed

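Sorted CD11b+CD45int cells of 1 KO LPS and 1 WT LPS library were profiled by Drop-seq. The authors deposited raw counts (UMIs per gene and barcode), 9999 barcodes per library, not filtered to cells. Genes missing from a matrix (5616 in KO LPS, 3036 in WT LPS) were read as 0. Ch25h, Cxcl13 and Soat2 were among those missing from KO LPS. Genes listed without any UMI numbered 0 in KO LPS and 435 in WT LPS, so a missing gene may differ from a measured 0. The submitters' processing notes name bcl2fastq 2.0, STAR, mm9 and mm10 without their roles; the counter, annotation and strand setting are not given in the sources used here, and RefSeq positions (GRCm38.p6) were matched by symbol. At least 100 genes were found in 676 and 3618 barcodes; cells also needed 500 UMIs, and doublets were left in.

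With Python 3.11.15, numpy 2.4.6 and scipy 1.17.1, UMIs were summed per library and divided by its total (CPM), with exact Poisson, conditional binomial and Clopper-Pearson intervals (95%), and an interval built from the latter (MOVER) for differences of shares. Log2 ratios used a prior count of 0.5. The median log2 scaling shift between libraries was 0.03. Background came from barcodes with at most 100 UMIs. Intervals were tested on simulated data: 96.4% held the true ratio over 8815 genes. The simulated UMIs were drawn independently, so this share does not apply to genes concentrated in few cells, such as Ch25h and Cxcl13.

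Named were the members, Cxcl13, Park7, the 8 genes of highest phi, and per list the highest and lowest ratio among genes with at least 50 UMIs plus any at 0 UMIs in 1 library with at least 20 in the other. Some items that this rule names are not reported here. Members and lists were chosen with earlier results of these data known. Alternatives covered cell minimum, highest barcodes, sex-linked transcripts, scaling, background, gene minimum, fold and thinning.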

Additional observations from a re-analysis of the deposited data

How the results depend on the processing

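With 1 library per genotype, no replicate could be left out and every value is limited by depth. No paired analysis was possible because each genotype had 1 library and no test was made. Ch25h had 0 UMIs in KO LPS under all 9 alternatives, so its log2 ratio was set there by the prior count and the WT LPS count and says nothing of stability; in Y-linked cells the ratio had an upper limit of 5.93, which bounds nothing. The difference in the share of cells with Ch25h was -2.17 points without thinning, with the same cells at their full depth, and its interval (-3.07 to -0.834) then left out 0. In the 12 KO LPS and 195 WT LPS cells with a Y-linked and no Xist UMI, 0 members were over 2-fold lower and 1 was higher, among 3 that reached 20 UMIs, and the Abca1 log2 ratio reversed to -0.12 (5 KO LPS UMIs); Sqle had no UMI there and gave no value. The difference in Cxcl13 detection between cells with and without Ch25h turned from 6.10 points to -0.915 with at least 1000 UMIs per cell, -0.822 without the 5% of cells with most UMIs, -0.471 in cells with Xist, -0.521 in Y-linked cells, -0.849 with a second seed, -0.632 with at least 2 Ch25h UMIs and -0.849 without the 3 cells with most Ch25h UMIs, an alternative chosen after seeing the data; in each, 0 Ch25h cells had Cxcl13. The co-detection therefore depends on 1 cell.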

Other observations

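Each library pooled a female and a male mouse, and Ch25h in WT LPS was found among cells of either sex: 35 UMIs in 17 of 645 cells with Xist, and 15 UMIs in 7 of 195 cells with a Y-linked UMI and no Xist. Soat1 had a ratio of 0.321 (0.186 to 0.519) in cells with Xist and 0.698 (0.0826 to 2.63) in Y-linked cells, with 2 KO LPS UMIs. Abcg1 had a ratio of 0.940 (0.554 to 1.53) in cells with Xist and 7.51 (2.43 to 19.97) in Y-linked cells, where KO LPS had 12 cells and 6 Abcg1 UMIs. The difference between the sexes was not tested.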
